A study of Mus musculus with 6 samples.

Results

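The motor genes described here are the mouse genes of kinesins, cytoplasmic dynein and dynactin, the machines that carry cargo along microtubules. They were chosen by symbol, as those starting with Kif and a digit, Klc1 to Klc4, those starting with Dync or Dynl, and Dctn1 to Dctn6. Of 69 symbols that matched, 64 had at least 6 reads in at least 1 library and are the members, out of 21876 genes with that many reads and 55357 genes in the files. Kif28 was just inside the minimum with 6 reads in its best library, and Kif12 and Kif16bos were just outside it with 2 reads each. Kif2b, Kif22-ps and Kif4-ps had 0 reads in every library. Kif1bp matches by its symbol, although it encodes a protein that binds kinesins and is no motor, and the dynein genes whose older symbols do not match (Wdr60, Wdr34, Tctex1d2 and Tcte3) were not used here.

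The data were RNA-seq read counts of 6 libraries of wild-type mouse primary neuronal cultures, prepared from cortex and hippocampus of C57BL/6N embryos at E18. At DIV4 (day in vitro 4), a lentivirus brought in either a scrambled shRNA (shCtrl, 3 libraries) or sh2, a single shRNA against Pla2g4e (shPla2g4e, 3 libraries), and cells were collected at DIV14. Pla2g4e encodes a calcium-dependent N-acyltransferase that makes precursors of N-acylethanolamines, and the comparison asks which transcripts change when it is reduced during neuronal maturation. No source states whether the 3 libraries of a group came from separate cultures or animals, so that every SD, standard error and p-value measures the spread between these libraries, which may be technical. A second shRNA sequence was not analysed here, and an effect of lower Pla2g4e and an effect of sh2 on other transcripts cannot be told apart by this design.

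Values below are CPM, the reads of a gene per 1e6 counted reads, scaled by the TMM method, and 3 values of a group are always those of its replicates 1, 2 and 3 in that order. A log2 fold change, or log2 change, is that of shPla2g4e over shCtrl, and the value after ± beside it is its standard error. Pla2g4e had 38.0, 35.1 and 35.4 CPM in shCtrl and 21.8, 14.1 and 18.7 CPM in shPla2g4e libraries, with no overlap between groups (log2 fold change −0.99 ± 0.131, adjusted p = 1.24e-04 in edgeR's quasi-likelihood test with Benjamini-Hochberg adjustment over all genes tested). Libraries held 17054717 to 23570180 counted reads, of which the motor genes took 1.16% to 1.23% in shCtrl and 1.08% to 1.15% in shPla2g4e libraries. All 8 neuronal markers examined were well covered, with 1162 to 37418 reads in a library, and summed to 5045 to 5493 CPM in shCtrl and 4612 to 5091 CPM in shPla2g4e libraries. Of these, Map2 and Rbfox3 were called lower (log2 fold changes −0.45 and −0.41) and Nefl higher (0.48). With replicate number as a block 2 were lower and 2 higher, 0 of the 8 were called without shCtrl replicate 2, and Rbfox3 kept its call in 1 of the 6 fits that leave out a library, the one without shCtrl replicate 3. Astrocyte markers were present too, and 7 of 8 were lower in shPla2g4e cultures, 3 of them called (Aqp4, Gja1 and Slc1a2), or 7 with the block and 1 to 6 when each library was left out. Their summed level was 2909 to 3734 CPM in shCtrl and 1974 to 3167 CPM in shPla2g4e libraries. The called astrocyte markers were all lower, 37.5% of the list, or 87.5% with the block. Of the 10932 genes with a mean of at least 8 CPM 837 were called lower, or 1836 with the block. In either direction 11.1% and 26.2% of these genes were called, beside 3 and 4 of the 8 neuronal markers. Microglial markers summed to 4.58 to 9.50 and 3.05 to 5.37 CPM, with Itgam and Tmem119 under the read minimum and P2ry12 at 0 reads in shPla2g4e replicates 1 and 3, and mural and endothelial markers to 26.9 to 70.8 and 31.0 to 76.6 CPM, with Cldn5 and Kcnj8 under the minimum. Oligodendrocyte lineage markers summed to 516 to 585 and 536 to 640.3 CPM, progenitor markers to 702 to 799 and 577 to 734 CPM, and ciliated ependymal markers to 24.5 to 41.3 and 25.7 to 50.3 CPM. Of the 8 progenitor markers, Dcx was called lower and Neurog2 higher (log2 fold changes −0.51 and 1.04), a call that Dcx lost without shCtrl replicate 2 and Neurog2 without shPla2g4e replicate 1 (adjusted p = 0.0119 and 0.0124). With the block 2 of the 8 were called too, beside 6.49% of all genes tested, or 15.5% with the block. The part of these other cells in the motor gene values was not tested, and in bulk libraries fewer cells of a type and less RNA per cell cannot be told apart.

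Kinesins are motors that mostly walk towards the plus end of microtubules, which in axons points to the terminal, so that they carry vesicles, mitochondria and receptors outward. Cytoplasmic dynein 1, together with its activator dynactin, walks the other way and brings organelles and signals back to the cell body. Other kinesins build the mitotic spindle and finish cytokinesis, and their transcripts are best known from dividing cells.

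To set the sequences beside the values, the sites where the sh2 guide could pair by its seed were listed first. The sh2 target in Pla2g4e and its guide strand, which is the reverse complement, are shown 5′ to 3′ with the seed (bases 2 to 8 of the guide) in capitals.
sh2 target: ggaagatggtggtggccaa
sh2 guide: tTGGCCACcaccatcttcc

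An mRNA that pairs with this seed holds GTGGCCA. In the 3′ UTR of the protein-coding transcript with the longest coding sequence (GENCODE vM21, built on GRCm38), 7 of the 63 motor genes with such a region held it, each at 1 position. This share of 11.1% was close to that of all 15703 genes tested with a 3′ UTR, 11.95%. The 7 genes were Kif5a, Kif1b, Kif21b, Kif14, Kif26a, Dynlrb1 and Dctn4. Counting the 3′ UTRs of every protein-coding transcript, Kif16b and Kif1bp held it too, which makes 9 motor genes (14.3%, beside 14.6% of all genes). The sites in the genes that the results below turn on follow with 11 bases on either side, the site in capitals and coordinates in GRCm38.
Kif5a (chr10:127225961-127225989, minus strand): ggggggcggcaGTGGCCAgccttccctcc
Kif1b (chr4:149179543-149179571, minus strand): atctaaatccaGTGGCCAtttccagtagt
Kif21b (chr1:136177455-136177483, plus strand): tgctgagcacaGTGGCCAgttccccaaca
Dynlrb1 (chr2:155250036-155250064, plus strand): gtgggcacgtgGTGGCCAcctgagcctgt

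The second set of sequences are promoters, shown because mitotic kinesins are known as genes of the cell cycle. The mouse promoter table of RefSeq (GRCm38.p6) gives 250 bases before to 50 after a gene's start, and 47 of the 64 motor genes matched it. TTTGAA, the core of the element known as CHR in cell cycle genes, and CCAAT, the box read by NF-Y, were searched on both strands, and the motifs can share end bases where they abut. Using the first start listed for each gene, TTTGAA was in 9 of 10 mitotic kinesin promoters, in 0 of 10 transport kinesin promoters and in 12.6% of the promoters of 13780 genes tested. CCAAT was in 6 of 10, 3 of 10 and 37.9%, and both motifs together were in 6 of 10, 0 of 10 and 5.22%. Of all 32851 promoters in the table, 17.9% held TTTGAA. Of the mitotic kinesins with an entry, Kif18a had no TTTGAA on either strand, and the second start listed for Kif1a, a transport kinesin, had 1. Kif20a, Kif5a, Kif5b and Kif13b had no entry. A match describes the letters in this window and is not shown to be a site. The promoters of Kif11, Kif23 and Kif4 and, for comparison, of Kif5c are printed on the strand of the gene with both motifs in capitals, which read TTCAAA and ATTGG where the match is on the other strand.
Kif11 (chr19:37376132-37376431, plus strand): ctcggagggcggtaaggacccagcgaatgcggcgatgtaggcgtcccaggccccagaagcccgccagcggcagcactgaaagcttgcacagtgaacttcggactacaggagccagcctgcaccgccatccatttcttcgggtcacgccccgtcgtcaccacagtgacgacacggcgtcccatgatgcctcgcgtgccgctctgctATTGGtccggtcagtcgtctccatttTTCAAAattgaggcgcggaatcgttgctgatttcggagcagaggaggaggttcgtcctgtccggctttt
Kif23 (chr9:61946750-61947049, minus strand): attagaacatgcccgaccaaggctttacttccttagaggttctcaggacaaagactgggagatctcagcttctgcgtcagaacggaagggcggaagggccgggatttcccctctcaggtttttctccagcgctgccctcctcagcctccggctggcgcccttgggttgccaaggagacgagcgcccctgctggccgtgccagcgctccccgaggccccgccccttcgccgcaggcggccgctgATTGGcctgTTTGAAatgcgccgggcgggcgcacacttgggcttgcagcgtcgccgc
Kif4 (chrX:100625815-100626114, plus strand): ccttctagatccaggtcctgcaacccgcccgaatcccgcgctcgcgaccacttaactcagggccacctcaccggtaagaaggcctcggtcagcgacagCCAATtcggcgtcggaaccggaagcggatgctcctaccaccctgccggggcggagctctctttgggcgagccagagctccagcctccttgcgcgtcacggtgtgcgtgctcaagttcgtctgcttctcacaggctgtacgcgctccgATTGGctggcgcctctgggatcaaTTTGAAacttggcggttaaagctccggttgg
Kif5c (chr2:49619036-49619335, plus strand): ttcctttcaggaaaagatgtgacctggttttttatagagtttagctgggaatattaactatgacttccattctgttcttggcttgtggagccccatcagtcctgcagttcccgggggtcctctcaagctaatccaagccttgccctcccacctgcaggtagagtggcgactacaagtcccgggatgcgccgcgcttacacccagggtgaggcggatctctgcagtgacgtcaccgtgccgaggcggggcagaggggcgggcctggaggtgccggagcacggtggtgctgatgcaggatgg

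Over the whole family the knockdown moved few genes past the threshold, and most members were slightly lower. Of the 64 motor genes, 3 were down-regulated at an adjusted p of 0.01 (Kif5a, Kif2a and Dynlrb1) and 1 was up-regulated (Kif26b). These 4 are 6.25% of the members, against 6.49% of all genes tested (4.0% down-regulated and 2.48% up-regulated). Libraries carry the numbers 1 to 3 in each group and those of the same number deviated together, and with the replicate number as a block 11 motor genes were down-regulated and 1 was up-regulated, 18.8% of the members against 15.5% of all genes (9.02% down-regulated and 6.50% up-regulated). The 8 added by the block were Kif1b, Kif21b, Dync1h1, Dync1i1, Dync1i2, Dctn4, Dynll1 and Dynll2.

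Members that did not pass leaned the same way. Of the 64, 42 had a log2 fold change below 0, against 46.5% of all genes, with a median of −0.17 against 0.03 over all genes. The libraries of the groups did not overlap for 22 members that were lower and 7 that were higher (45.3% of the 64), against 14.6% and 15.5% of all genes, 30.0% in all. At an unadjusted p of 0.05, 26 members passed, 23 of them lower, against 25.7% of all genes, 12.9% lower. Of the 42 members with a mean of at least 8 CPM 21 passed, 19 of them lower. Of the 10932 genes at that level 4065 passed, 2456 of them lower. All 4 called genes were among the 42 members with a mean of at least 8 CPM, where 31 were lower with a median of −0.18, and 19 were lower and 5 higher without overlap (57.1%). Of all 10932 genes at that level 5960 were lower, the median was −0.02, 2608 were lower and 1777 higher without overlap (40.1%), and 11.1% were called. With the block 28.6% of these members were called, beside 26.2% of all genes at that level. Among the 22 members under 8 CPM, 11 were lower, 11 were higher and 0 were called in edgeR with or without the block, with 5 at an unadjusted p of 0.05. Of the 4150 genes with a mean of 1 to 8 CPM 4.55% were called and 11.7% with the block, so that 0 of 22 is near that share. Scaling by library size alone moved the median of all genes to 0.10 and that of the motor genes to −0.10, with 38 lower, and turned the share of calls over all genes that were down-regulated from 61.7% to 43.3%. Leaving out shCtrl replicate 2 left 0 down-regulated motor genes and leaving out shPla2g4e replicate 1 left 1, whereas 6 were called without shCtrl replicate 3.

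**Figure D1:**
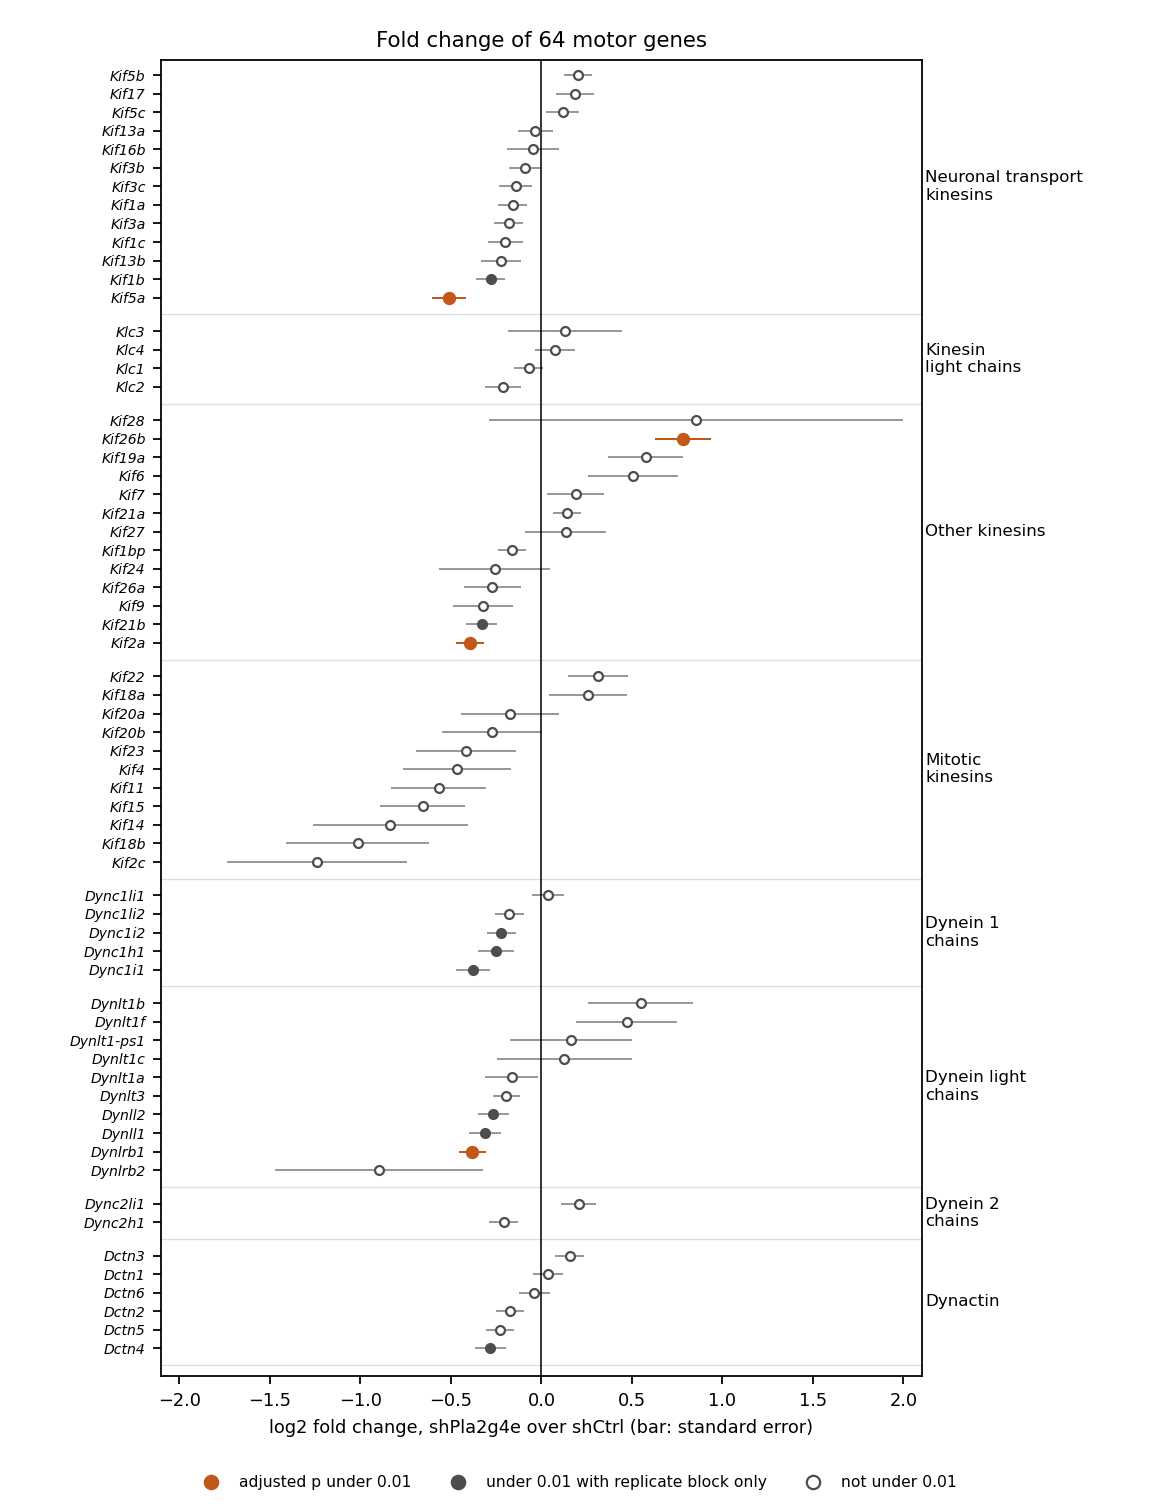
Log2 fold change of shPla2g4e over shCtrl (horizontal axis) for each of the 64 motor genes, by role, with the standard error as a bar. Filled orange points passed an adjusted p of 0.01, filled grey points passed it with the replicate block alone, and most points lie to the left of 0.

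In edgeR without the block, Kif5a was the only transport kinesin that fell past the threshold. The other heavy chains of conventional kinesin, Kif5b and Kif5c, lay on the other side of 0. Kif5a, the neuronal heavy chain known for carrying neurofilaments and mitochondria along axons, had 1235, 1282 and 1273 CPM in shCtrl and 977, 759.6 and 926 CPM in shPla2g4e libraries. Every shPla2g4e library lay below every shCtrl library, and replicate 2 was the lowest. Kif5a (ENSMUSG00000074657, chr10:127061565-127099217, minus strand, GRCm39) thus fell by 0.51 ± 0.0927 on the log2 scale (adjusted p = 0.00164 in edgeR's quasi-likelihood test), to 70.3% of the shCtrl mean. The call was lost without shCtrl replicate 2 (adjusted p = 0.0174), where the log2 fold change was −0.50.

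Kif5b, the heavy chain found in all tissues, had 197, 204 and 211 CPM in shCtrl and 248, 229 and 227 CPM in shPla2g4e libraries. These groups did not overlap either and the shPla2g4e libraries were the higher ones, but the difference did not pass (log2 fold change 0.20 ± 0.0770, adjusted p = 0.103 in edgeR, 0.0143 with the block). Kif5c, the second neuronal heavy chain, had 1202, 1073 and 1032 against 1314, 1099 and 1175 CPM, with overlapping groups (log2 fold change 0.12, adjusted p = 0.466 in edgeR).

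Per kilobase of exon, the scale on which genes can be set side by side, Kif5a had 181 CPM per kb in shCtrl and 127 in shPla2g4e cultures, Kif5c 154 and 167, and Kif5b 25.6 and 29.4. Of the summed CPM per kb of the 3 heavy chains, Kif5a made up 47.8%, 51.0% and 51.6% in shCtrl and 39.4%, 37.3% and 40.7% in shPla2g4e libraries. Kif5a was the leading heavy chain in each shCtrl library and Kif5c in each shPla2g4e library. The mean share was 50.1% ± 2.04 against 39.1% ± 1.70 (SD, n = 3 each). This share was computed after the values of the 3 genes were seen and is given without a test.

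**Figure D2:**
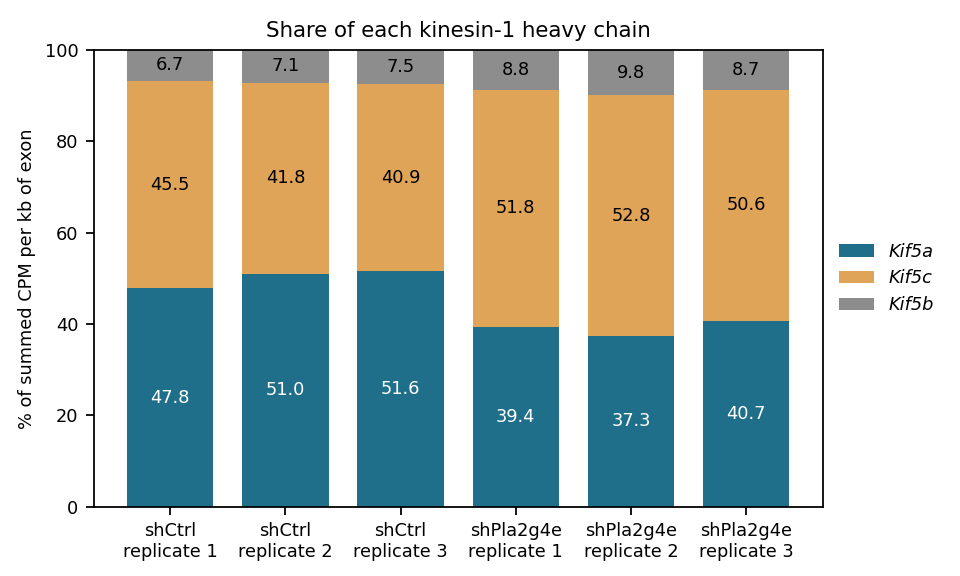
Share of Kif5a, Kif5c and Kif5b in their summed CPM per kb of exon (vertical axis, %) in each of the 6 libraries. The Kif5a share was 47.8% to 51.6% in the shCtrl bars and 37.3% to 40.7% in the shPla2g4e bars.

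Kif1a and Kif1b are fast motors that carry synaptic vesicle precursors, and Kif1b also has a form that carries mitochondria. Kif1a was the motor gene with the highest level per length in shCtrl cultures (188 CPM per kb), and its libraries (179 to 200.5 CPM per kb) overlapped those of Kif5a (177 to 183). Kif1a had 1870.3, 1720.4 and 1674 CPM in shCtrl and 1621, 1469 and 1625 CPM in shPla2g4e libraries, lower without overlap but not past the threshold (log2 fold change −0.16, adjusted p = 0.239 in edgeR). Kif1b had 1187, 1121 and 1036 against 929, 883 and 940.1 CPM, also without overlap (log2 fold change −0.28 ± 0.0804, adjusted p = 0.0302 in edgeR) but passed with the block (adjusted p = 1.61e-04) and in DESeq2 (0.00253).

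Kif3a, Kif3b and Kif3c, which pair into heteromeric motors of axons and cilia, and Kif17, a dendritic motor for glutamate receptor vesicles, did not pass. Kif3a had 225, 209 and 196 against 186, 183 and 187 CPM (log2 change −0.18, adjusted p = 0.155), the only gene of these 4 without overlap. The log2 fold changes of Kif3b, Kif3c and Kif17 were −0.09, −0.14 and 0.19. Of the exon bases of Kif3c 40.7% overlap other genes on the other strand, where reads were given to no gene. Vesicle and endosome motors of lower level, Kif1c, Kif13a, Kif13b and Kif16b, had log2 fold changes of −0.20, −0.03, −0.22 and −0.04, and Kif13b was the one without overlap. Of the 13 transport kinesins 10 were lower, 1 was called (2 with the block), 5 were lower without overlap and 1 higher, and the median log2 fold change was −0.14. The shares called (7.69%, or 15.4% with the block) were below those of all genes with a mean of at least 8 CPM (11.1% and 26.2%), and the share without overlap was 46.2% beside 40.1%. The called transport kinesins were all lower. Of the 10932 genes at that level 837 were called lower, or 1836 with the block. The median log2 fold change of the transport kinesins was −0.059 without shCtrl replicate 1.

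Kinesin light chains, which link the Kif5 heavy chains to cargo, showed 0 calls in edgeR with or without the block, with 1 of 4 at an unadjusted p of 0.05 (Klc2). Of all genes 6.49% were called, or 15.5% with the block, and 25.7% passed at an unadjusted p of 0.05. For 4 genes these counts are near those shares. Klc1, by far the most abundant of them at 121 CPM per kb in shCtrl, had 816, 753 and 732 against 760.3, 693 and 738 CPM with overlapping groups (log2 fold change −0.07 ± 0.0797, adjusted p = 0.651). Its log2 fold change was 0.005 when libraries were scaled by size alone. Klc2 had 132, 133 and 125 against 112, 95.1 and 130.4 CPM, with shPla2g4e replicate 3 within the shCtrl range (log2 fold change −0.21, adjusted p = 0.194). Klc4 and Klc3 had log2 fold changes of 0.08 and 0.13.

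**Figure D3:**
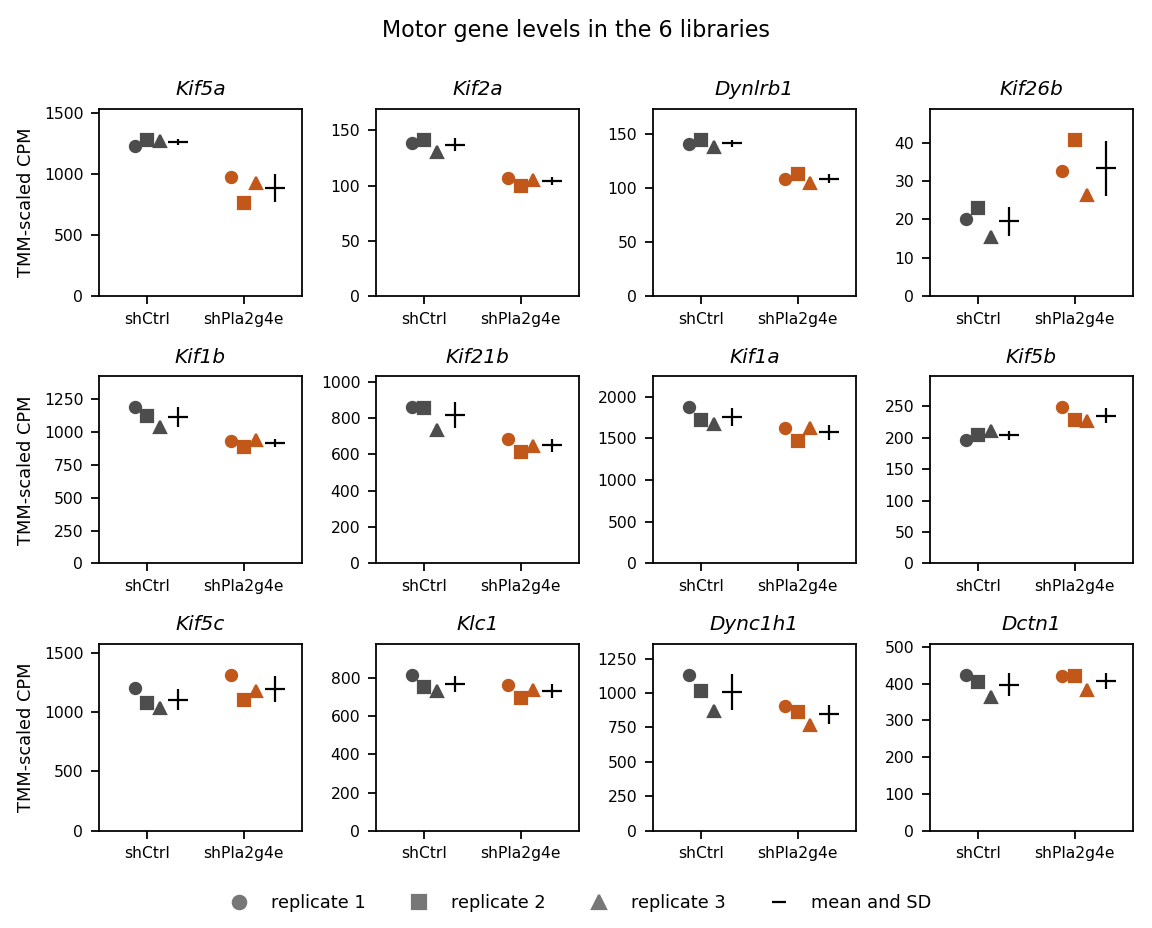
TMM-scaled CPM (vertical axis, starting at 0) of 12 motor genes in the 3 shCtrl and 3 shPla2g4e libraries, with the mean and SD beside the points. Kif5a, Kif2a and Dynlrb1 are lower and Kif26b is higher in every shPla2g4e library than in any shCtrl library, and the groups of Kif5c, Klc1 and Dctn1 overlap.

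Outside the transport class, 2 kinesins that act on microtubules or signalling passed the threshold. Kif2a, which takes tubulin off microtubule ends and is known to limit the growth of axon branches, had 139, 141 and 130.4 CPM in shCtrl and 107, 100.1 and 105 CPM in shPla2g4e libraries. No shPla2g4e library reached the lowest shCtrl library. Kif2a (ENSMUSG00000021693, chr13:107095504-107158634, minus strand, GRCm39) fell by 0.40 ± 0.0768 on the log2 scale (adjusted p = 0.00265 in edgeR's quasi-likelihood test). The call was lost without shCtrl replicate 1 (adjusted p = 0.0106), shCtrl replicate 2 (0.0266), shPla2g4e replicate 1 (0.0113) or shPla2g4e replicate 2 (0.0139), with a log2 fold change of −0.43 to −0.37 throughout. Of its exon bases 19.2% overlap Dimt1 on the other strand, where reads were given to neither gene, since the counting used no strand option and left out reads that overlap more than 1 gene.

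Kif26b was the only member that rose past the threshold. It encodes an atypical kinesin known from Wnt5a and Ror signalling and from cell adhesion rather than from transport. Its levels were 20.1, 22.8 and 15.4 CPM in shCtrl and 32.8, 40.7 and 26.4 CPM in shPla2g4e libraries, with replicate 3 the lowest and replicate 2 the highest of both groups. Kif26b (ENSMUSG00000026494, chr1:178356690-178766765, plus strand, GRCm39) rose by 0.78 ± 0.156 on the log2 scale (adjusted p = 0.00327 in edgeR's quasi-likelihood test, 1.48e-09 with the block) and stood at 171% of the shCtrl mean. The call was lost without shCtrl replicate 1 (adjusted p = 0.0114), shCtrl replicate 3 (0.0172), shPla2g4e replicate 1 (0.0105) or shPla2g4e replicate 2 (0.0166). About 6.19% of its exon bases overlap Gm16564 on the other strand. Kif26a, its closest relative, had 12.1, 15.1 and 13.1 against 9.29, 13.7 and 10.4 CPM with overlapping groups (log2 fold change −0.27, adjusted p = 0.306).

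Kif21a and Kif21b, related kinesins that act on microtubule growth, lay on opposite sides of 0. Kif21b had 859, 856 and 736 against 688, 615 and 649 CPM, lower without overlap (log2 fold change −0.33 ± 0.0856, adjusted p = 0.0182 in edgeR) but passed with the block (adjusted p = 1.83e-05) and in DESeq2 (0.00127). Kif21a had 196, 188 and 175 against 211, 205 and 199 CPM, higher without overlap but not past the threshold (log2 fold change 0.14, adjusted p = 0.271). The difference between both changes was not tested. Kif1bp, the binding protein, had a log2 fold change of −0.16 (adjusted p = 0.194). Among the scarcer genes, Kif19a and Kif6, which are linked to motile cilia, were higher without overlap (log2 fold changes 0.58 and 0.51, adjusted p = 0.0852 and 0.22), while Kif7, Kif9, Kif24, Kif27 and Kif28 had overlapping groups and log2 fold changes from −0.32 (Kif9) to 0.85 (Kif28, the gene just inside the read minimum). Of the 13 genes of this mixed group 6 were lower and 7 higher, with a median of 0.13. In edgeR 2 were called, or 3 with the block (15.4% and 23.1%), and 53.8% did not overlap. The shares of all genes were 6.49%, 15.5% and 30.0%, and those of genes with a mean of at least 8 CPM 11.1%, 26.2% and 40.1%.

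In the dynein 1 motor itself, 4 of 5 chains were lower, 0 passed in edgeR (4 at an unadjusted p of 0.05, and 1 in DESeq2, Dync1i1) and 3 passed with the block. The 3 chains called with the block and the 4 at an unadjusted p of 0.05 were all lower. Of the 10932 genes with a mean of at least 8 CPM 26.2% were called with the block, 1836 genes lower and 1026 higher. At an unadjusted p of 0.05, 4065 of these 10932 genes passed, 2456 of them lower. Dync1h1, the heavy chain that carries the motor domain, had 1133, 1013 and 869.9 CPM in shCtrl and 904, 861 and 768 CPM in shPla2g4e libraries. The groups overlapped, while each shPla2g4e library lay below the shCtrl library of its own number (log2 fold change −0.25 ± 0.0987, adjusted p = 0.114 in edgeR, 7.94e-04 with the block). Dync1i1, the intermediate chain of neurons that holds dynactin, had 123, 128 and 99.9 against 93.2, 87.1 and 89.6 CPM without overlap (log2 fold change −0.38, adjusted p = 0.0133 in edgeR, 2.79e-05 with the block). Without shCtrl replicate 3, the lowest control, its adjusted p was 0.0013. Dync1i2, the other intermediate chain, had a log2 fold change of −0.22 (adjusted p = 0.0064 with the block). The light intermediate chains Dync1li1 and Dync1li2, which bind cargo adaptors, had log2 fold changes of 0.04 and −0.18 (adjusted p = 0.85 and 0.168 in edgeR).

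The dynein light chains held the third down-regulated gene. Of the 10 genes of this list 1 was called, or 3 with the block, all lower. Over all genes tested 4.0% were down-regulated, or 9.02% with the block, and 6.49% and 15.5% were called in either direction. Of the 10932 genes with a mean of at least 8 CPM, the level of the called chains, 837 were called lower, or 1836 with the block. Dynlrb1, a roadblock light chain that sits on the intermediate chains, had 141, 145 and 139 CPM in shCtrl and 108, 113 and 105 CPM in shPla2g4e libraries. Both groups were tight and did not overlap. Dynlrb1 (ENSMUSG00000047459, chr2:155078453-155092197, plus strand, GRCm39) fell by 0.38 ± 0.0754 on the log2 scale (adjusted p = 0.00309 in edgeR's quasi-likelihood test). The call was lost without shCtrl replicate 2 (adjusted p = 0.0282) or shPla2g4e replicate 1 (0.0200), and narrowly when libraries were scaled by size alone (0.0103).

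Dynll2, which encodes a light chain shared with myosin and many other complexes, had 141 CPM per kb in shCtrl, beside 140.2 for Dynlrb1. It had 412, 397 and 345 against 327, 336 and 297 CPM without overlap (log2 fold change −0.27, adjusted p = 0.0574 in edgeR, 5.91e-04 with the block). Dynll1, its close relative, had a log2 fold change of −0.31 (adjusted p = 0.0267, 2.38e-04 with the block and 0.00743 in DESeq2), and Dynlt3 one of −0.20 (adjusted p = 0.105). The levels of Dynlt1a, Dynlt1b, Dynlt1c and Dynlt1f are uncertain, since 67.7% to 93.7% of the 50-base stretches of their transcripts also occur in other genes. Their log2 fold changes ran from −0.16 to 0.55 and 0 of these 4 were called. Dynlrb2, the second roadblock chain, and the pseudogene Dynlt1-ps1 were at 1.49 and 2.26 CPM in shCtrl and had log2 fold changes of −0.90 and 0.16, with overlapping groups. The level of Dynlt1-ps1 is uncertain too, since 100% of its 50-base stretches also occur in other genes.

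Of the genes of dynactin, which dynein needs to walk far, 3 were lower without overlap (Dctn2, Dctn4 and Dctn5) and 1 was higher (Dctn3), 66.7% of the 6 beside 40.1% of all genes with a mean of at least 8 CPM. Dctn1, whose product binds both dynein and the microtubule, had 424, 405 and 363 against 420.2, 419.7 and 381 CPM with overlapping groups (log2 fold change 0.03 ± 0.0836, adjusted p = 0.856). Dctn2, which encodes dynamitin, had a log2 fold change of −0.17 and Dctn3 one of 0.16, neither past the threshold (adjusted p = 0.172 and 0.229). Dctn5 and Dctn6, of the pointed end of the filament, had log2 fold changes of −0.23 and −0.04. Of the 6 subunits 4 were lower and 0 were called in edgeR or DESeq2, and Dctn4 passed with the block alone (log2 fold change −0.28, adjusted p = 9.67e-04). At an unadjusted p of 0.05, 3 of the 6 passed, all lower. Of the 10932 genes with a mean of at least 8 CPM 4065 passed, 2456 of them lower. Over dynein 1, dynein 2, the light chains and dynactin together, 15 of 23 genes were lower, 1 was called and 7 were called with the block (4.35% and 30.4%, beside 11.1% and 26.2% of all genes with a mean of at least 8 CPM), with a median of −0.18. The 2 genes of dynein 2, the motor inside cilia, pointed apart without passing, Dync2h1 with a log2 fold change of −0.21 and Dync2li1 with 0.21 (adjusted p = 0.113 and 0.2).

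Mitotic kinesins were scarce in these cultures. Their shCtrl levels ran from 0.185 to 1.43 CPM per kb, against 1.38 to 188 CPM per kb for the transport kinesins, and a library held 3 to 210 reads of a gene. Of the 11 genes 9 were lower after knockdown, with a median change of −0.47 on the log2 scale, and of −0.67 to −0.34 when single libraries were dropped in turn. Of the 11, 0 passed in edgeR, with or without the block, in limma or in DESeq2, and 4, all lower, passed at an unadjusted p of 0.05, as did 990 of the 4150 genes with a mean of 1 to 8 CPM, 282 of them lower. A count of 0 is near the share called among all genes with a mean of 1 to 8 CPM, 4.55%, or 11.7% with the block. Summed over the 11 genes the level was 31.2, 45.2 and 37.6 CPM in shCtrl and 28.5, 33.6 and 34.3 CPM in shPla2g4e libraries, so that the groups overlapped.

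Kif15, which helps to keep spindle poles apart, had 3.54, 4.58 and 5.24 against 2.43, 2.73 and 3.37 CPM, without overlap (log2 fold change −0.66 ± 0.233, adjusted p = 0.0795 in edgeR). Kif2c, which takes tubulin off microtubules at kinetochores, had 1.16, 2.21 and 1.15 against 0.711, 0.971 and 0.171 CPM, the last of these being 3 reads (log2 fold change −1.24 ± 0.498, adjusted p = 0.122). Kif18b, a kinesin of astral microtubules, had 1.16, 3.12 and 1.51 against 1.0, 0.925 and 0.914 CPM (log2 change −1.02, adjusted p = 0.11). These 3 were the mitotic kinesins whose groups did not overlap, 27.3% of the 11, and all 3 were lower. Of the 4150 genes with a mean of 1 to 8 CPM 26.3% did not overlap, 310 genes being lower and 780 higher. Of all genes 30.0% did not overlap, 14.6% being lower and 15.5% higher. For Kif2c and Kif18b, shCtrl replicate 2 was the highest library.

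Kif11, the motor that pushes spindle poles apart, had 3.49, 6.14 and 5.42 against 2.30, 4.02 and 3.89 CPM with overlapping groups (log2 fold change −0.57, adjusted p = 0.183). Kif14, Kif4, Kif23, Kif20b and Kif20a, motors of chromosomes and of cytokinesis, had log2 fold changes of −0.84, −0.47, −0.42, −0.27 and −0.17, all with overlapping groups. Kif18a and Kif22, which position chromosomes, were the members on the other side, with log2 fold changes of 0.26 and 0.31 (adjusted p = 0.514 and 0.263). Of the exon bases of Kif20a 29.3% overlap Cdc23 on the other strand.

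**Figure D4:**
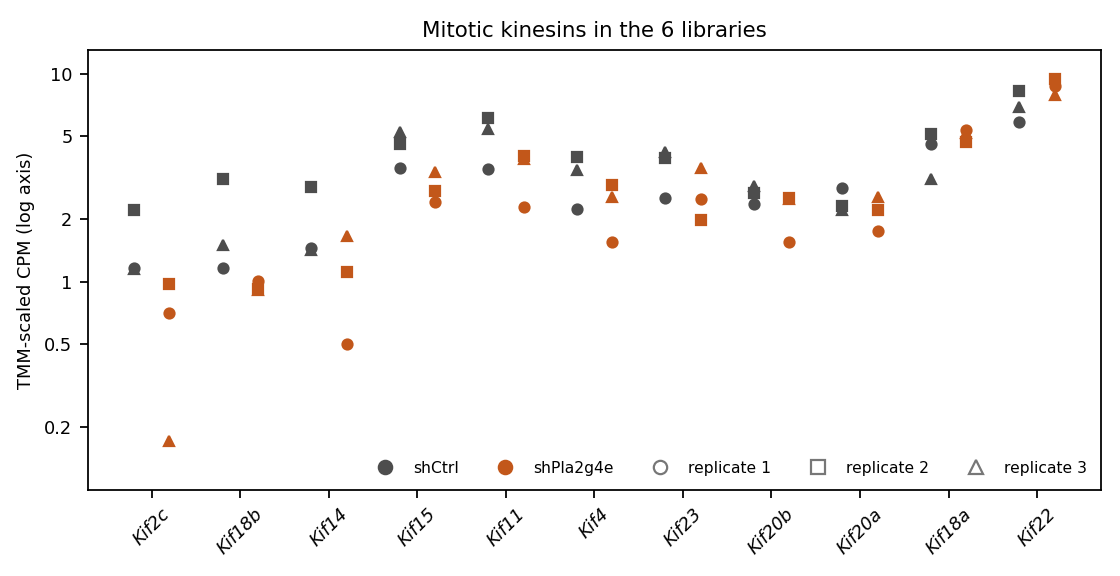
TMM-scaled CPM (vertical log axis) of the 11 mitotic kinesins in the 3 shCtrl (grey) and 3 shPla2g4e (orange) libraries, ordered by log2 fold change from −1.24 for Kif2c to 0.31 for Kif22. The groups are apart for Kif2c, Kif18b and Kif15 and overlap for the other genes.

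A list of 19 other proliferation genes was read beside them. Of these 17 were lower, 1 was called (Top2a) and 3 were called with the block (5.26% and 15.8%). The called proliferation genes were all lower. Over all genes tested 4.0% were down-regulated, or 9.02% with the block. Of the 4150 genes with a mean of 1 to 8 CPM 39 were called lower, or 135 with the block. The median change of the proliferation list was −0.45 on the log2 scale. Its summed level was 150.0, 197 and 168 CPM in shCtrl against 135, 140.1 and 143 CPM in shPla2g4e libraries. Top2a, the topoisomerase of dividing cells, fell by 1.0 ± 0.219 on the log2 scale (adjusted p = 0.00613 in edgeR), and its call was lost without shCtrl replicate 2 (0.0552), shCtrl replicate 3 (0.0102), shPla2g4e replicate 1 (0.0340) or shPla2g4e replicate 2 (0.0218). Mki67 and Incenp, which mark and organise dividing chromosomes, passed with the block alone, with log2 fold changes of −1.13 and −0.49. The part of dividing cells in the values of the mitotic kinesins was not tested.

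The median level in shCtrl was 25.6 CPM per kb over transport and 0.450 CPM per kb over mitotic kinesins, although the ranges met, with the mitotic Kif22 (1.43 CPM per kb) above the transport motor Kif16b (1.38). The median log2 fold change was −0.14 in the first and −0.47 in the second, and the median standard error of a gene was 0.0901 in the first and 0.276 in the second. Whether the changes of both classes differ was not tested.

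The partners of these motors outside the symbol patterns were read from further lists. Of 11 partner genes tested, such as other kinesins, kinesin-associated protein and the actin-like filament of dynactin, 9 were lower and 2 were called, Kifc2 and Kifap3 (18.2%, or 27.3% with the block, beside 11.1% and 26.2% of all genes with a mean of at least 8 CPM). The called partners were all lower. Of the 10932 genes at that level 837 were called lower, or 1836 with the block. Kifc2, a neuronal kinesin that walks to the minus end, went from 400.4 ± 23.9 to 291 ± 33.4 CPM (SD, n = 3 each, log2 fold change −0.46, adjusted p = 0.00314 in edgeR). Kifap3, which joins the Kif3 motors to cargo, went from 317 ± 28.1 to 237 ± 12.97 CPM (log2 change −0.42, adjusted p = 0.00374 in edgeR). Both calls were lost without shCtrl replicate 1, shCtrl replicate 2, shPla2g4e replicate 1 or shPla2g4e replicate 2 (adjusted p = 0.0103 to 0.0297), and that of Kifap3 without shPla2g4e replicate 3 as well (0.0121). Actr1a, which forms the dynactin filament, passed with the block alone (log2 fold change −0.29, adjusted p = 2.05e-04).

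Of 34 cargo adaptors and regulators of transport 25 were lower, 7 were down-regulated and 0 were up-regulated, or 10 and 1 with the block, with a median of −0.17. The called share was thus 20.6%, or 32.4% with the block, beside 6.49% and 15.5% of all genes and 11.1% and 26.2% of the genes with a mean of at least 8 CPM. Clstn1, which encodes calsyntenin 1, a membrane cargo docked to kinesin light chains, went from 983 ± 126 to 614 ± 21.9 CPM (SD, n = 3 each, log2 fold change −0.68 ± 0.0934, adjusted p = 1.61e-04 in edgeR). Bicd2, an adaptor that turns dynein on, went from 111 ± 1.14 to 78.4 ± 8.04 CPM (log2 change −0.50, adjusted p = 0.00101), and Mapk8ip2, a scaffold bound by kinesin, from 260.5 ± 19.6 to 190.0 ± 6.63 CPM (log2 change −0.46, adjusted p = 0.00134). Of these 3, Mapk8ip2 lost its call without shCtrl replicate 2 (adjusted p = 0.0133). The count for the whole list was 2 without shCtrl replicate 2, 4 without shCtrl replicate 1, shPla2g4e replicate 1 or shPla2g4e replicate 2, and 5 or 7 without either of the remaining libraries.

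The changes were then set beside the seed sites. All 7 motor genes that hold GTGGCCA in the 3′ UTR of the transcript chosen above were lower in shPla2g4e cultures, with log2 fold changes from −0.84 (Kif14) to −0.27 (Kif26a) and a median of −0.33. Of the 56 that do not hold it there 35 were lower and 21 higher, with a median of −0.16. These include Kif16b and Kif1bp, which hold it in another transcript and had log2 fold changes of −0.04 and −0.16. Over all genes tested, 68.6% of the 1877 with the site and 47.2% of the 13826 without it were lower, with medians of −0.15 and 0.02, and 38.1% of down-regulated and 6.05% of up-regulated genes held it. Of the 3 down-regulated motor genes, Kif5a and Dynlrb1 hold the site and Kif2a does not, and of the 11 called down-regulated with the block 5 hold it (Kif5a, Dynlrb1, Kif1b, Kif21b and Dctn4). Among the 7 members that were higher without overlap, 0 hold it in that 3′ UTR. In coding sequences, motor genes on both sides of 0 hold GTGGCCA. Kif26b holds 3 copies there and Kif19a 1, and Dync1i1 and Dynll1, both called down-regulated with the block, hold 1 each. Coding sites were not counted over all genes. The 3′ UTRs of Kif5b and Kif5c used here do not hold it. The part of the site in the values of these genes was not tested. Kif1a shares a run of 13 contiguous bases with the sh2 target, and 0.274% of the 15703 genes searched share a run of that length, and the longest runs in Kif5a, Kif2a, Dynlrb1 and Kif26b were 7, 9, 10 and 9 bases.

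**Figure D5:**
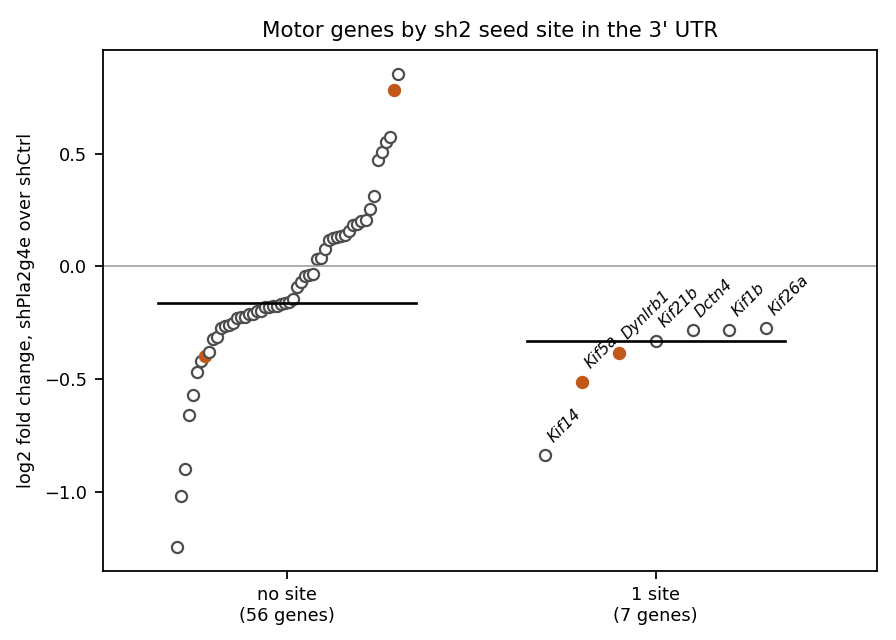
Log2 fold change of shPla2g4e over shCtrl (vertical axis) for the 56 motor genes without and the 7 with GTGGCCA in the 3′ UTR of the transcript with the longest coding sequence, 1 point per gene, spread sideways by rank, orange where the adjusted p is under 0.01 and with a line at the median. The 7 points with the site all lie below 0, around a median of −0.33.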

How the data were processed

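RNA was measured in 6 libraries, 3 shCtrl and 3 shPla2g4e, grouped by the treatment in the labels. The authors aligned the reads with STAR 2.7.0d, used featureCounts 1.6.0 for gene counts over exons and deposited raw counts, 1 file per library, with gene lengths. Per the file headers the annotation was GENCODE vM28 (GRCm39) with no strand or read-pair option, whereas the methods name mm10 and M18. Multi-mapping reads were left out of the counts, which lowers near-identical copies.

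Here 21876 genes (a minimum of 6 reads in any library) were tested together with edgeR 4.0.16 (R 4.3.3; TMM, glmQLFit, glmQLFTest, Benjamini-Hochberg, adjusted p of 0.01) without covariates, after the script had been tested on simulated data. The study used limma after voom, run here (limma 3.58.1) as an alternative beside DESeq2 1.42.0, other scalings and filters, a robust fit, a replicate block and each library left out. Deviations of same-numbered libraries correlated at 0.39, 0.19 and 0.46 over 10908 genes, those of different numbers at −0.39 to 0.11, so the numbers were taken as pairs. With 17054717 to 23570180 reads per library, genes under 8 CPM are measured roughly.

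Symbols came from GENCODE vM21 (52081 of 55357 identifiers matched). Sequences were searched in Python 3.11.15. The members and lists were chosen with earlier results of these data known. Named genes were the members called, the 3 with the highest level per length in each list, a set of well known motors, all mitotic kinesins, and the 3 companions with the smallest p per list. Every other member, such as Dync1i2, Dctn4, Dynll1 and Kif26a, and the excluded symbols were named after their values were seen.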

Additional observations from a re-analysis of the deposited data

How the results depend on the processing

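The knockdown of Pla2g4e kept its direction and its call under every setting run (log2 fold change −1.14 to −0.83 when each library was left out). The count of 3 down-regulated motor genes became 7 in DESeq2, 6 with no filter, 11 with the replicate block and 8 at an adjusted p of 0.05, and ran from 0 to 6 when each library was left out. The count of 1 up-regulated gene ran from 0 to 1 in those fits, and the replicate block left it at 1. The median log2 fold change of transport kinesins (−0.14) was −0.065 with library size alone, −0.11 with upper-quartile scaling and −0.17 to −0.059 when each library was left out. That of dynein and dynactin genes (−0.18) was −0.10 with library size alone, and that of mitotic kinesins (−0.47) moved by less than the spread under every setting run. Of the 40 motor genes named by the rule, 0 that had been called changed direction, 5 gained a call under some setting and 4 lost it, and 3 uncalled ones near 0 (Dctn1, Dync1li1 and Klc1) changed sign in 4 fits. Of the members named after their values were seen, Dync1i2, Dctn4 and Dynll1 gained a call with the block, which changed no other call beyond those given in the report. The causes were not tested. The mitotic kinesins have 3 to 210 reads in a library, and the part of this depth in the count of 0 calls was not tested.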
